A study of Mus musculus with 2 samples.

Results

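The clustered protocadherins are the 57 protein-coding mouse genes of the Pcdha, Pcdhb and Pcdhg clusters, which lie one after another on chromosome 18. They were taken by symbol from the annotation, every protein-coding gene named Pcdha, Pcdhac, Pcdhb, Pcdhga, Pcdhgb or Pcdhgc with a number, and made up 57 of the 43346 annotated genes in the files, 21474 of which were protein-coding. There were 14 alpha members, 22 beta members and 21 gamma members, the last being 12 of the A type, 6 of the B type and 3 of the C type. The RNA came from facial prominences, the swellings around the primitive mouth that form the face, of mouse embryos of strain B6NCrl at 11.5 days. A single group of 2 total RNA libraries was sequenced, with 109 embryos of both sexes pooled for library 1 and 88 for library 2. The input to each was 10 ng of RNA above 200 nt in size with spike-in RNAs, and the labels name no treatment, mutation or transgene.

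Clustered protocadherins are cell-surface adhesion proteins of the cadherin superfamily, which bind the same isoform on a neighbouring cell. In the alpha and gamma clusters each member has its own promoter and its own large first exon, which encodes the extracellular part, and this exon is spliced to a set of constant exons that all members of the cluster use. Beta members have no constant exons. In neurons, where these proteins are best known, each cell uses its own combination of promoters, a choice that involves CTCF, cohesin and DNA methylation, and the C-type members at the end of the alpha and gamma clusters are used more evenly from cell to cell. In mouse, Pcdhgc4 is known for the survival of interneurons, Pcdhac2 for the spacing of serotonergic axons and Pcdhgc3 for binding Axin1 and dampening Wnt signalling.

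On assembly mm10 the alpha members spanned positions 36930184 to 37187661 of chromosome 18, the beta members 37264938 to 37524479 and the gamma members 37661793 to 37841873, all on the plus strand. The annotation gave the alpha cluster 3 constant exons of 59, 89 and 2712 nt, and the gamma cluster 3 of 59, 89 and 1971 nt. The full-length coding transcripts of alpha members shared 46.5% to 54.9% of their bases with transcripts of other members. Those of gamma members shared 41.7% to 66.8%, the highest share being that of Pcdhga4, which also overlaps a Pcdhgb1 transcript without a constant exon by 1038 nt. Of 26 beta transcripts, 22 were of 1 exon and 4 of 2 exons, and the only overlap among beta members was a stretch of 455 nt where the end of Pcdhb21 meets the start of Pcdhb22. Exons of minus-strand genes overlap 13 members (Pcdha4, Pcdha6, Pcdha11, Pcdha12, Pcdhb12, Pcdhga1, Pcdhga7, Pcdhga8, Pcdhga10, Pcdhgb7, Pcdhga11, Pcdhga12 and Pcdhgc3), and with no strand stated for the libraries, reads of the 2 strands cannot be told apart there. The annotation gives the symbol Pcdha11 to 2 entries. The one starting at 37005203 (ENSMUSG00000007440.10), which RefSeq places at Pcdha10, is called Pcdha10 here, and Pcdha11 is ENSMUSG00000102206.1.

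The libraries held 30849058 expected counts in library 1 and 31600302 in library 2, of which 10132.4 and 9230.31 fell on the members, 0.0354% and 0.0315% of the counts on genes. Across 15986 genes the libraries differed by a coefficient of variation of 9.79%. All 8 mesenchyme markers were at 1 TPM or more in both libraries, with a summed level of 1435.11 TPM in library 1 and 1410.78 TPM in library 2. The libraries are separate pools of 1 group, so no condition was compared and no p-value is given. The intervals below hold for counting error alone: without molecular identifiers, reads do not each stand for a separate molecule.

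The gamma cluster held most of the protocadherin RNA. Levels are in TPM, an abundance corrected for transcript length, so that genes can be compared with each other. The summed level of all members was 124.39 TPM in library 1 and 107.66 TPM in library 2, or 116 ± 11.8 TPM (SD, n = 2). The gamma members summed to 104.70 TPM in library 1 and 90.31 TPM in library 2, the beta members to 14.66 and 13.76 TPM, and the alpha members to 5.03 and 3.59 TPM. These sums do not overlap between clusters. The gamma cluster's share of the members' TPM was 84.0 ± 0.202%, the beta cluster's 12.3 ± 0.704% and the alpha cluster's 3.69 ± 0.501%.

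Of the 57 members, 25 reached 1 TPM in both libraries, against 58.5% of all protein-coding genes. The share was uneven between the clusters, at 19 of 21 gamma members, 5 of 22 beta members and 1 of 14 alpha members. The median level over a cluster's members was 2.88 TPM for gamma, 0.49 TPM for beta and 0.28 TPM for alpha, beside 3.45 TPM over protein-coding genes. In all, 30 members were below 1 TPM in both libraries. In bulk tissue, fewer cells of a type and less RNA per cell cannot be told apart.

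**Figure D1:**
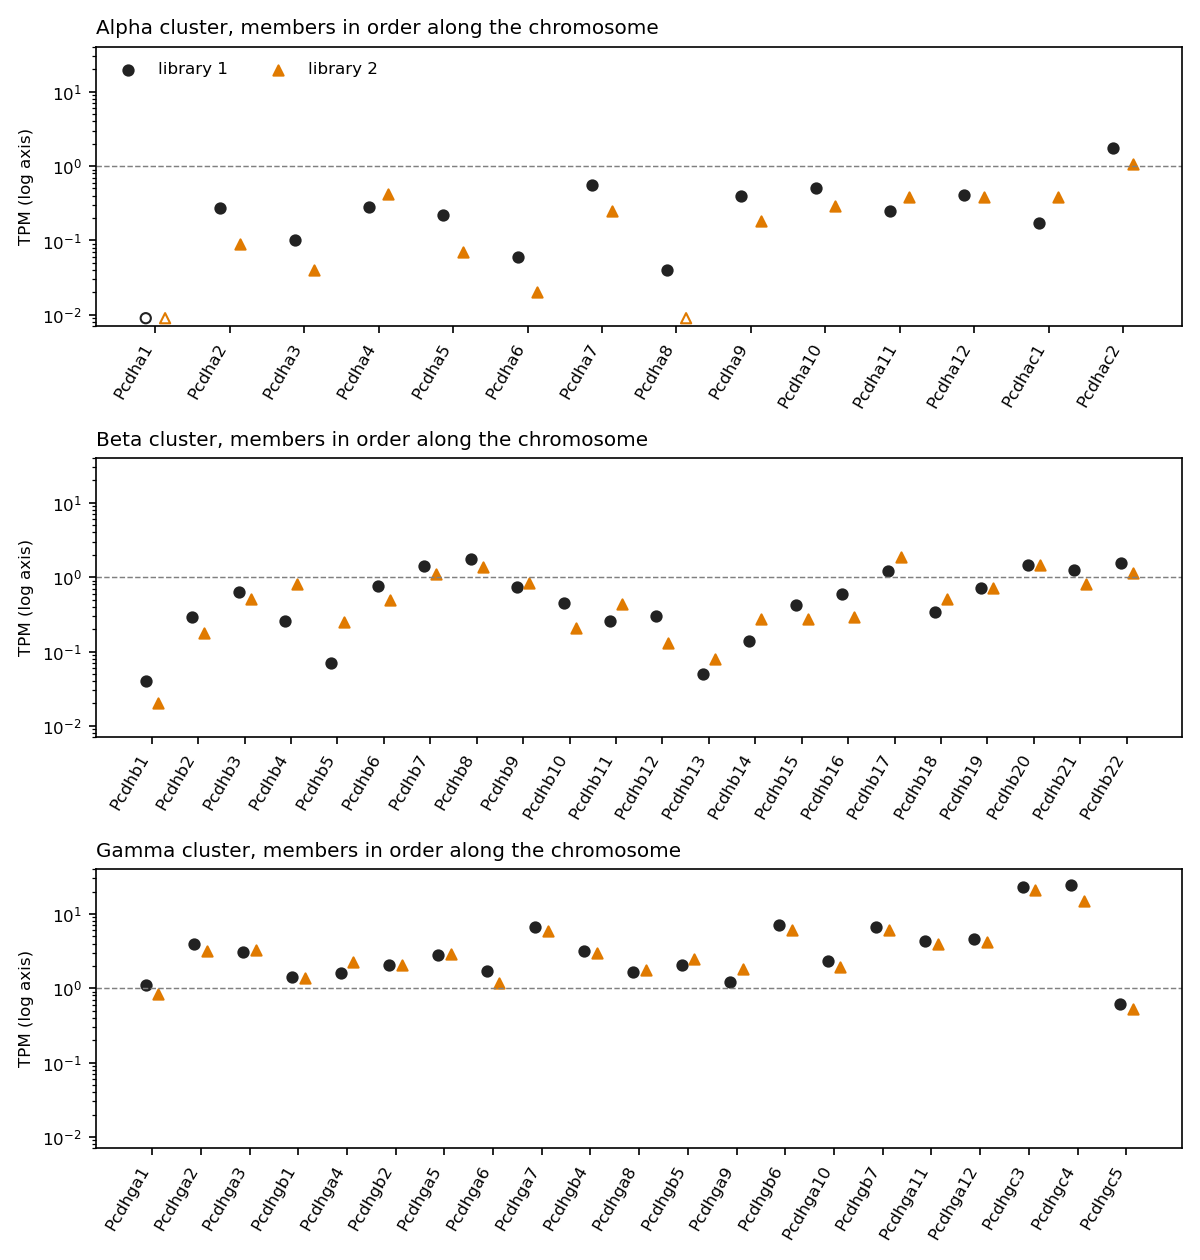
Level of each member in library 1 (black circles) and library 2 (orange triangles), in TPM on a log axis, with members in order along the chromosome and 1 panel per cluster. Open symbols are listed at 0 and the dashed line marks 1 TPM; 19 of 21 gamma members lie above the line in both libraries, against 1 of 14 alpha members.

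Among the alpha members, Pcdhac2 (ENSMUSG00000102697.1), the last in the cluster, was the only one above 1 TPM in both libraries, at 1.77 TPM in library 1 and 1.07 TPM in library 2. The other C-type member, Pcdhac1, was at 0.17 and 0.38 TPM. The next levels were those of Pcdha7 with 0.55 TPM in library 1 and 0.25 TPM in library 2, Pcdha10 with 0.51 and 0.29 TPM, Pcdha12 with 0.41 and 0.39 TPM, and Pcdha4 with 0.28 and 0.42 TPM. All members upstream of Pcdhac2 stayed below its value in either library, and the values of Pcdha7, Pcdha10, Pcdha12 and Pcdha4 overlap one another. Pcdha1, the first in the cluster, had no expected count in either library. At its length a limit of 3 counts corresponds to 0.0293 TPM in library 1 and 0.0288 TPM in library 2. Pcdha8 had 4.50 counts in library 1 and was listed at 0 in library 2.

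The beta members were low, with mean levels from 0.03 to 1.55 TPM and no member above 2 TPM in either library. The highest were Pcdhb8 with 1.74 TPM in library 1 and 1.36 TPM in library 2, Pcdhb17 with 1.20 and 1.88 TPM, Pcdhb20 with 1.46 and 1.47 TPM, Pcdhb22 with 1.53 and 1.13 TPM, and Pcdhb7 with 1.43 and 1.11 TPM. Most of these 5 overlap between libraries, and Pcdhb20 was above Pcdhb7 in both. Pcdhb1, the first in the cluster, was at the bottom with 2 counts in library 1 and 1 count in library 2, which is 0.04 and 0.02 TPM. By position, the 6 members from Pcdhb17 to Pcdhb22 had a median of 1.18 TPM and summed to 6.50 TPM in library 1 and 6.51 TPM in library 2. The 16 members from Pcdhb1 to Pcdhb16 had a median of 0.35 TPM and summed to 8.16 and 7.25 TPM. The values of Pcdhb8 and Pcdhb22 lean on short 2-exon transcripts. That of Pcdhb8, 462 nt long, took 31.5% of the gene's TPM in library 1 and 29.0% in library 2 from only 4.07 and 3 counts, and the 1-exon transcript was at 1.19 and 0.97 TPM. For Pcdhb22 the 2-exon transcript took 61.3% and 65.9%, and the 1-exon transcript was at 0.59 and 0.38 TPM.

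The gamma A and B members, which alternate along the cluster, spread over a moderate range. The 12 A members summed to 34.80 TPM in library 1 and 33.01 TPM in library 2, and the 6 B members to 22.44 and 21.07 TPM. Among the 18, Pcdhgb6 was at 7.16 TPM in library 1 and 6.10 TPM in library 2, Pcdhgb7 at 6.62 and 6.16 TPM and Pcdhga7 at 6.60 and 5.82 TPM. These 3 were above every other A or B member in both libraries and overlap one another. Pcdhga12 and Pcdhga11 followed with 4.62 and 4.19 TPM, and 4.26 and 3.88 TPM. At the low end Pcdhga1, the first member of the cluster, was at 1.10 TPM in library 1 and 0.83 TPM in library 2. The mean levels of the 18 ran from 0.965 to 6.63 TPM with a median of 2.57 TPM, a narrower range than the 0.57 to 21.7 TPM of the C-type members.

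The C-type gamma members held the extremes of the cluster. Pcdhgc3 (ENSMUSG00000102918.1) was at 22.68 TPM in library 1 and 20.69 TPM in library 2. Pcdhgc4 (ENSMUSG00000023036.10) was at 24.17 and 15.01 TPM, and Pcdhgc5 (ENSMUSG00000102543.1), the last in the cluster, at 0.61 and 0.53 TPM. The Pcdhgc3 and Pcdhgc4 values overlap, and both were above all other members in each library. Pcdhgc5 was the lowest gamma member in each, though not by the posterior mean TPM, a second deposited estimate. Pcdhgc3 stood 3.28 ± 0.159 times above Pcdhgb6 and 38.1 ± 1.31 times above Pcdhgc5 (ratio of TPM within a library, SD, n = 2). By posterior mean TPM, Pcdhgc5 was at 1.08 TPM in library 1 and 1.11 TPM in library 2. That is above Pcdhga1, at 1.07 and 0.82 TPM. On that estimate Pcdhgc3 was at 22.09 and 20.23 TPM, and so less far above Pcdhgc5. Together the 3 C-type members summed to 47.46 TPM in library 1 and 36.23 TPM in library 2.

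A breakdown by transcript changed this picture for Pcdhgc4. Its full-length coding transcript was at only 0.52 TPM in library 1 and 0.50 TPM in library 2, below the full-length transcripts of all but 3 gamma members in library 1 (Pcdhga1, Pcdhga9 and Pcdhgc5) and of all but Pcdhgc5 in library 2. A short coding transcript (ENSMUST00000195239) carried 84.9% of the gene's TPM in library 1 and 75.7% in library 2, at 20.52 and 11.36 TPM. That transcript is 2272 nt long, with a first exon of 153 nt, and 93.3% of its bases lie in the constant exons that all gamma members use. A 1-exon retained-intron transcript of the gene was at 3.13 and 3.15 TPM. Most of the Pcdhgc4 level was thus assigned to a transcript that has little sequence of its own, and whether those reads came from this gene was not tested.

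Pcdhgc3 kept its place at full length. Its full-length coding transcript was at 16.09 TPM in library 1 and 12.89 TPM in library 2, above the full-length transcript of every other gamma member in both libraries. A transcript annotated as a target of nonsense-mediated decay, with 59.1% of its bases in the constant exons, gave a further 6.40 and 7.45 TPM. The full-length transcript of Pcdhgb6 was at 7.16 TPM in library 1 and 6.10 TPM in library 2. At full length Pcdhgc3 thus stood less far above Pcdhgb6 than by gene TPM. Summed over the cluster, full-length transcripts held 63.4% of the gamma TPM in library 1 and 68.6% in library 2. Other transcripts with constant exons held 26.0% and 21.2%, the short Pcdhgc4 transcript alone 19.6% and 12.6%. Transcripts without a constant exon held 10.5% and 10.3%. The second kind was found in the 3 C-type members and in no A or B member.

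Of the gamma members, 9 had a single annotated transcript and 12 had several. Transcripts without a constant exon, annotated mostly as retained introns or as 1-exon coding transcripts, took part of the level of several A and B members. For Pcdhga9 the share was 63.1% in library 1 and 50.7% in library 2. It was 43.6% and 24.2% for Pcdhga7, 36.6% and 29.9% for Pcdhgb2, and 31.3% and 28.9% for Pcdhga12. In Pcdhga1 the 1-exon transcript took 57.9% in library 1 and 13.9% in library 2, a difference between libraries that the gene's total of 84.64 and 76.17 counts does not show. In the alpha cluster, full-length transcripts held 97.8% of the TPM in library 1 and 93.3% in library 2. Pcdha11 was split differently in each library, with its longest transcript at 0 counts in library 1 and at all 43.27 counts in library 2.

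**Figure D2:**
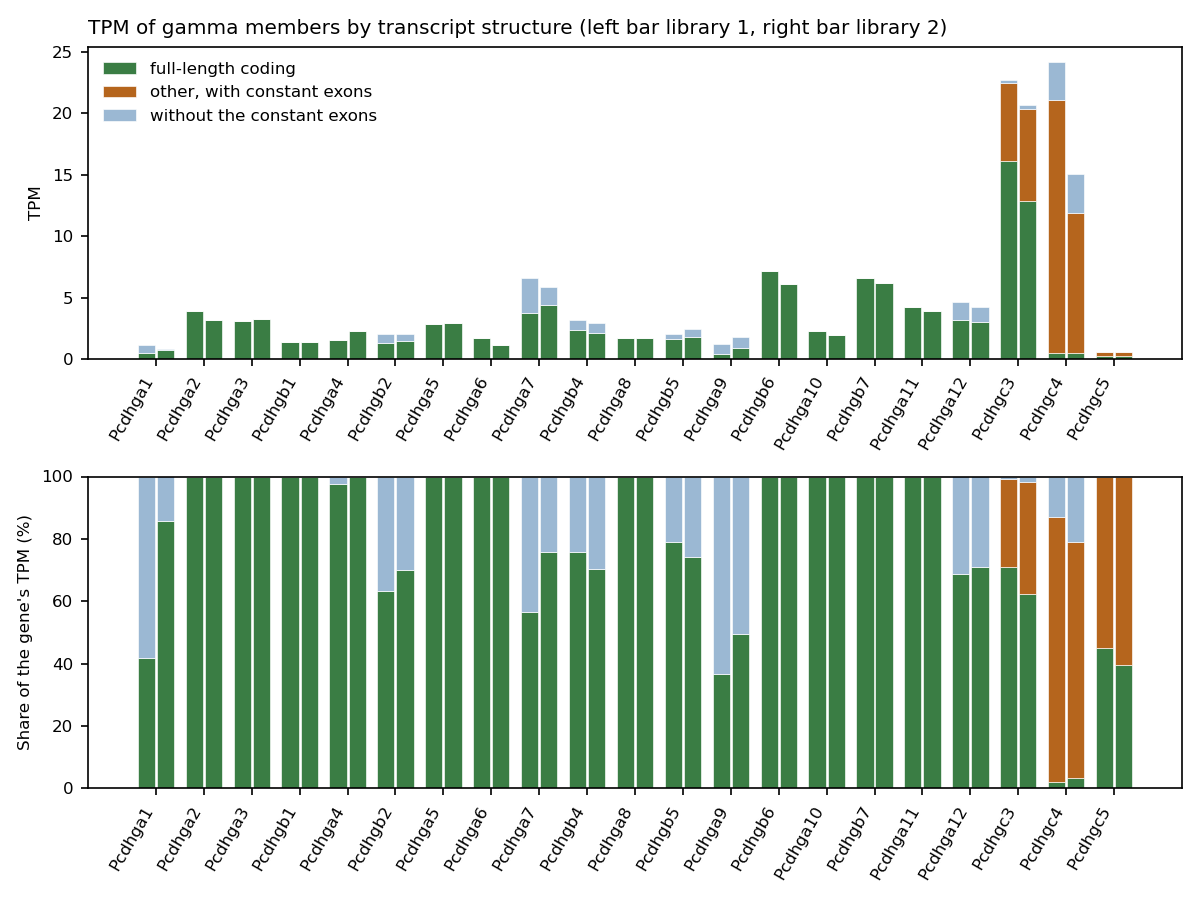
Level of each gamma member by kind of transcript, in TPM (top) and as a percentage of the gene's TPM (bottom), with library 1 as the left bar and library 2 as the right bar of each pair. Full-length transcripts (green) make up most of Pcdhgc3 and of the A and B members, apart from Pcdhga9 and, in library 1, Pcdhga1, while Pcdhgc4 is mostly a transcript with constant exons that is not full-length (brown), 84.9% and 75.7% of it being the short coding transcript.

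The clusters differed in how precisely their reads could be assigned. The files give for each gene a posterior SD, which is the spread of its count over the ways in which the quantifier could divide the reads that match several places; an SD of 0 means that the division did not vary. Over the 48 members with a posterior mean count of at least 10 in both libraries, the median SD was 15.2% of the count in library 1 and 20.4% in library 2 for 9 alpha members. It was 5.78% and 5.22% for 21 gamma members, and 0 in both libraries for 18 beta members. An SD above 10% in both libraries was found for 8 of 9 alpha members, 1 of 21 gamma members and 0 of 18 beta members, 9 in all, against 1.46% of protein-coding genes under the same filter. With genes limited to the members' range of counts, the background was 1.95%. An SD of 0 in both libraries was found for 8 of 18 beta members and for no alpha or gamma member, against 70.2% of protein-coding genes.

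By the mean of both libraries, the least certain of these 9 alpha counts were those of Pcdha2, with an SD of 18.7% of the count in library 1 and 36.1% in library 2, Pcdha4 with 28.6% and 24.3%, and Pcdha11 with 25.9% and 20.4%. Pcdhac2 was the only alpha member of the 9 under 10%, at 5.16% and 6.93%. Among the gamma members the highest by that mean were 8.93% and 12.1% for Pcdhga10, 10.5% in both libraries for Pcdhga1, 8.19% and 10.2% for Pcdhgc5 and 9.44% and 8.32% for Pcdhgb2, and the lowest 2.28% and 2.67% for Pcdhgc3. Among the 18 beta members the highest were 1.93% and 3.74% for Pcdhb10, 0.88% and 2.09% for Pcdhb6, and 0.98% and 1.80% for Pcdhb21. Among these 48 members the alpha and beta values do not overlap. Pcdhb12, left out because its posterior mean count was under 10 in library 2, was at 6.43% and 13.1%, above Pcdhac2.

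Relative uncertainty falls with the count, so the SD was also divided by the square root of the count, which is the size of counting error. On this scale the medians were 0.981 in library 1 and 1.14 in library 2 for alpha and 0.792 and 0.796 for gamma, so the SD from dividing the reads was close in size to counting error. By the mean of both libraries, the highest of the 48 was Pcdhgc4, at 2.07 in library 1 and 2.61 in library 2, and next came Pcdhga10 at 1.31 and 1.65 and Pcdha4 at 1.44 and 1.40. For Pcdhgc4 the SD of 6.05% and 9.42% of the count was thus over 2 times the counting error in each library.

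**Figure D3:**
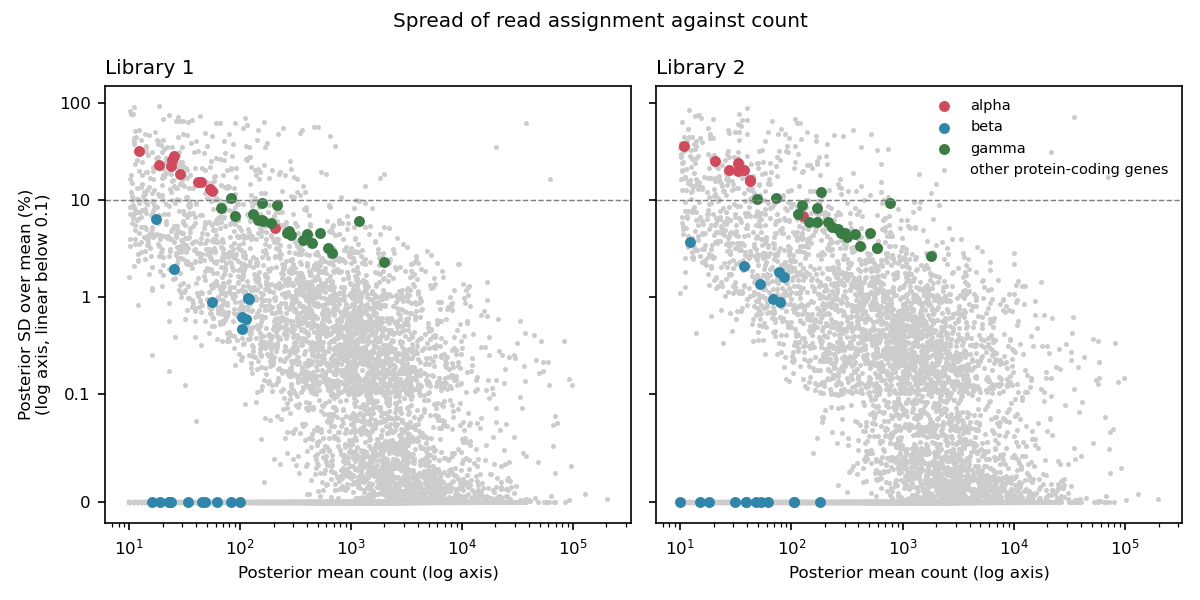
Posterior SD as a percentage of the posterior mean count (log axis, linear below 0.1) against the posterior mean count (log axis) in library 1 (left) and library 2 (right), with alpha, beta and gamma members in colour and other protein-coding genes in grey. Alpha and gamma members fall along a line through the upper part of the cloud, with Pcdhgc4 above it, and beta members lie at 0 or under the dashed line, which marks 10%.

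Between the pools the alpha cluster stood higher in library 1. Its summed counts were 551.70 in library 1 and 400.86 in library 2, a ratio of 1.37 after scaling by TMM (95% interval 1.21 to 1.57). Pcdhac2 contributed 210.55 counts in library 1 and 129.22 in library 2, a ratio of 1.63 (1.31 to 2.05), and the alpha members without it had a ratio of 1.25 (1.06 to 1.47). The beta cluster's ratio was 1.01 (0.929 to 1.10). For gamma it was 1.09 (1.06 to 1.13), and 1.05 (1.01 to 1.08) without Pcdhgc4.

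Markers of other cells also gave ratios other than 1, although few passed 1.5-fold: 0 of the neuron, surface epithelium, endothelial and erythroid markers, 1 of 6 glial, 1 of 5 forebrain and olfactory, and 2 of 4 skeletal muscle markers. Of the 8 mesenchyme markers 1 passed it, Barx1, at 56.65 TPM in library 1 and 104.89 TPM in library 2. Among protein-coding genes with at least 20 counts, 9.08% passed it. All 10 neuron markers, among them Tubb3 and Dcx, were above 0 and had a ratio above 1, with a median of 1.17, summing to 688.51 TPM in library 1 and 572.72 TPM in library 2. The 4 surface epithelium markers summed to 198.67 and 171.52 TPM, the 4 endothelial to 132.88 and 113.54 TPM, the 5 of forebrain and olfactory epithelium to 67.49 and 57.35 TPM, and the 4 erythroid to 11154.4 and 10259.6 TPM. The 6 glial markers went the other way, at 193.37 and 214.12 TPM, as did the 4 skeletal muscle markers, at 97.44 and 161.64 TPM, all 4 of these being lower in library 1. Their part in the alpha ratio was not tested.

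For single members, 51 had at least 20 counts over both libraries. Of these, 22 differed by 1.5-fold or more between the libraries, 13 higher and 9 lower in library 1, against 9.08% of protein-coding genes under the same filter (5.43% higher and 3.65% lower). They were 8 of 10 alpha members, 12 of 20 beta members and 2 of 21 gamma members. The share was largest at the lowest counts, in members and in all protein-coding genes. Of the 38 members with 20 to 400 counts, 21 passed the fold (55.3%), against 30.2% of protein-coding genes in that range. By range of counts, it was 7 of 7 members against 55.1% at 20 to 50 counts, 10 of 15 (66.7%) against 34.4% at 50 to 100, and 1 of 5 (20.0%) against 24.1% at 100 to 200. At 200 to 400 counts it was 3 of 11 (27.3%) against 10.6%, and at 400 to 4000 counts 1 of 13 (7.69%) against 1.4%. An interval that leaves out a ratio of 1 was found for 23 of the 51 members, 8 alpha, 8 beta and 7 gamma, against 42.1% of protein-coding genes. For 20 to 400 counts it was 19 of 38 members against 28.5%. A ratio above 1 was found for 32 of the 51 members, against 49.4% of protein-coding genes. The median log2 ratio over the 51 members was 0.11, with 0.73 for alpha, 0.29 for beta and 0.09 for gamma, beside -0.0027 over protein-coding genes.

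The largest ratios toward library 1 were those of Pcdha5, with 23.45 counts in library 1 and 7.45 in library 2, a ratio of 3.14 (1.36 to 9.05), and Pcdha2, with 26.25 and 9.23 counts, a ratio of 2.84 (1.31 to 6.99). Pcdhb12 followed with 18 and 8 counts, a ratio of 2.25 (0.929 to 5.97), and Pcdha9 with 42.61 and 19.56 counts, a ratio of 2.17 (1.24 to 3.85). Pcdhb12's interval includes 1. For the alpha members the division of shared reads adds to this, with an SD of the log2 ratio of 0.69 for Pcdha5 beside a log2 ratio of 1.65, and of 0.59 for Pcdha2 beside 1.51. For Pcdhac2 it was 0.12 beside a log2 ratio of 0.70.

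The largest ratios toward library 2 included 2 neighbouring beta genes, whose posterior SD was 0 in both libraries. Pcdhb4 (ENSMUSG00000045689.3) had 19 counts in library 1 and 61 in library 2, a ratio of 0.311 (0.175 to 0.528), and Pcdhb5 had 5 and 18 counts, a ratio of 0.277 (0.0805 to 0.775). Pcdhac1 had 18.48 and 41.96 counts, a ratio of 0.440 (0.232 to 0.759), and Pcdha11 had 20.33 and 43.27 counts, a ratio of 0.469 (0.259 to 0.806). For these 2 alpha members the division of shared reads adds to the counting error. The SD of the log2 ratio was 0.40 for Pcdhac1 beside -1.19, and 0.48 for Pcdha11 beside -1.09. Pcdhb17, with 111.95 counts in library 1 and 179 in library 2, had a ratio of 0.624 (0.489 to 0.795). Both alpha and beta clusters thus held members on either side, within a few genes of each other.

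**Figure D4:**
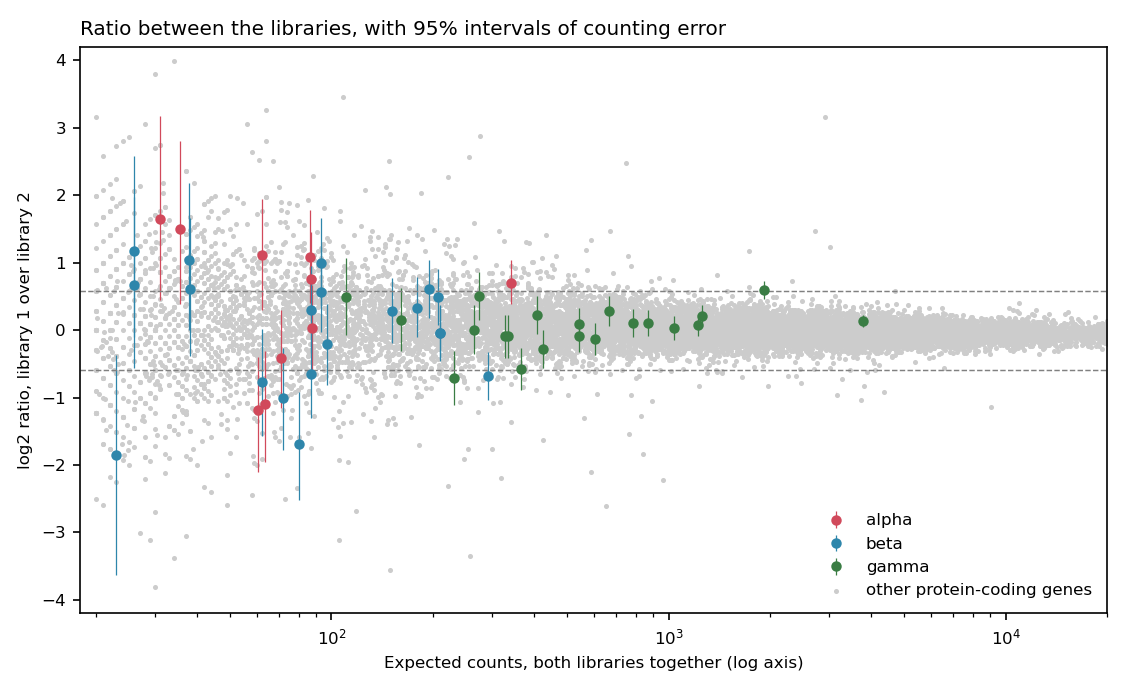
Log2 ratio of library 1 over library 2 against the expected counts of both libraries together (log axis), for members in colour with 95% intervals of counting error and other protein-coding genes in grey; dashed lines mark 1.5-fold. Most gamma members lie within the lines, 2 of 21 being outside them, while alpha and beta members, with fewer counts, scatter on both sides.

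In the gamma cluster only Pcdhgc4 and Pcdhga9 passed the fold. Pcdhgc4 had 1159.50 counts in library 1 and 764.23 in library 2, a ratio of 1.51 (1.38 to 1.66). The division of shared reads adds to the counting error, with an SD of the log2 ratio of 0.16 beside 0.60. No such SD was computed for single transcripts, so the transcript intervals here and below leave that division out. As the quantifier divided the reads, the difference was found in the short transcript. It had 914.25 counts in library 1 and 515.24 in library 2, a ratio of 1.77 (1.59 to 1.98). The full-length transcript had 52.48 and 51.64 counts, a ratio of 1.01 (0.666 to 1.5), and the retained-intron transcript 192.77 and 197.35 counts, a ratio of 0.975 (0.798 to 1.20). In Pcdhgc3, whose gene ratio was 1.10 (1.03 to 1.17), the transcripts went apart, with 1513.96 and 1234.07 counts at full length, a ratio of 1.22 (1.14 to 1.32), and 457.57 and 542.49 counts for the decay target, a ratio of 0.842 (0.743 to 0.957).

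Pcdhga9 had 87.74 counts in library 1 and 143.21 in library 2, a ratio of 0.612 (0.466 to 0.807). Here the full-length transcript differed, with 42.05 and 86.56 counts, a ratio of 0.485 (0.325 to 0.704), and the retained-intron transcript had 45.69 and 56.65 counts, with an interval of 0.534 to 1.21. Pcdhga7 had a gene ratio of 1.03 (0.906 to 1.16), its 1-exon transcript having 173.60 counts in library 1 and 86.63 in library 2, a ratio of 2.00 (1.53 to 2.61), and its full-length transcript 353.83 and 426.21 counts, a ratio of 0.829 (0.718 to 0.957). An antisense gene, Gm37165, overlaps Pcdhga7 by 536 nt, and was at 0.09 TPM in library 1 and 0.55 TPM in library 2.

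The genes listed as regulators of promoter choice took in factors of cohesin and DNA methylation in general. All 18 listed regulators passed 1 TPM in both libraries, and their median was 47.5 TPM. The highest were Trim28, a co-repressor that works with Setdb1, at 407.95 TPM in library 1 and 404.87 TPM in library 2, the cohesin subunit Smc1a at 97.66 and 104.46 TPM, the DNA-binding factor Ctcf at 85.36 and 83.49 TPM and the cohesin subunit Smc3 at 67.07 and 77.81 TPM. None of the 18 differed by 1.5-fold between the libraries, against 9.08% of protein-coding genes with at least 20 counts. That share falls with the count, to 1.4% at 400 to 4000 counts. Of the 18, 3 had a ratio above 1, and the median ratio was 0.920. The same shares stand beside the counts for the lists below.

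Of 16 partners and proteases of clustered protocadherins, 14 passed 1 TPM in both libraries, and their median was 29.7 TPM. The kinase Ptk2b, at 1.06 TPM in library 1 and 0.56 TPM in library 2, was the only one to differ by 1.5-fold. The highest were the WAVE complex subunits Brk1, at 176.18 and 176.01 TPM, and Cyfip1, at 88.44 and 89.22 TPM, and the focal adhesion kinase Ptk2 at 62.99 and 63.32 TPM. The receptor Ret was below 1 TPM in both libraries, at 0.96 and 0.80 TPM. Axin1, to which Pcdhgc3 binds, was at 9.69 and 13.68 TPM.

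Among 12 protocadherins outside the clusters, 11 passed 1 TPM in both libraries, and their median was 3.45 TPM. The sum over all 57 clustered members, 124.39 TPM in library 1 and 107.66 TPM in library 2, was close to the level of Pcdh18 alone, 103.48 and 107.80 TPM. Pcdh9 was at 20.04 and 20.55 TPM, Pcdh10 at 4.78 and 8.21 TPM and Pcdh7 at 5.16 and 5.28 TPM. Pcdh10 differed by 1.5-fold between the libraries, as did Pcdh15, at 1.09 and 0.76 TPM. Of 6 neighbours along the chromosome, 5 were at 1 TPM or more in both libraries and none of the 5 with enough counts differed by 1.5-fold. The highest were Hdac3 at 122.76 and 106.38 TPM, Hars2 at 37.12 and 34.62 TPM, Zmat2 at 33.81 and 34.28 TPM and Taf7 at 20.02 and 22.86 TPM, and Slc25a2 was below 1 TPM, at 0.19 and 0.41 TPM. Taf7 and Slc25a2 lie between the beta and gamma members, Taf7 at a level above every beta member and Slc25a2 at one below the beta median.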

How the data were processed

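Total RNA-seq of 2 libraries was quantified by the authors on assembly mm10 with GENCODE M4 gene models, per the deposited notes. The columns carry RSEM's names; versions of the aligner and quantifier, and the strandedness, are not given in the sources used here. The authors' expected counts, per the file headers, are estimated reads, where a read with several matches is split between them. The deposited TPM is scaled over all entries, spike-ins included. Also deposited are posterior mean counts with their SD, a score in reads, and each transcript's percent of its gene's TPM. Symbols and exons came from GENCODE M21, in which all 87 member transcripts had the same length as in the files.

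Members and lists were chosen with earlier results of these data known. Computed here were TMM ratios (edgeR 4.0.16, R 4.3.3) of library 1 over library 2, with exact Clopper-Pearson 95% intervals of the split of the rounded counts. The spread between pools comes from edgeR's common dispersion. The SD of a log2 ratio from read division combines both posterior SDs. A full-length transcript is coding, with constant exons and a first exon of at least 2000 nt. Detection means 1 TPM in each library. Ratios need at least 20 counts over both libraries and are read against 1.5-fold, a rule of size. The ratios were tested on simulated counts. In each cluster, named members are the 5 highest in TPM, the 3 highest in SD over count and the first and last, then all C-type members, those without counts and the 4 largest ratios each way. From each list the 4 highest and those below 1 TPM are named, and marker lists are given mainly by their sums. A gene that this rule names is not reported here. Other members, genes and transcripts were named after their values were seen. Alternatives included DESeq2 1.42.0 size factors.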

Additional observations from a re-analysis of the deposited data

How the results depend on the processing

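Over 11 results and 48 alternatives, 34 moved by less than the limit used, 14 moved by more and 0 reversed direction. A reversal could be recorded only for the median ratio over members and for the alpha and gamma ratios. For the summed TPM and the shares the limit was the SD over the libraries. Leaving out a library cannot pass that limit, so those alternatives could not count as moved. With a detection limit of 2 TPM, 13 members were detected. With TPM scaled to annotated genes alone, the members summed to 137 TPM. Of the alternatives chosen after seeing the data, leaving out the short Pcdhgc4 transcript gave a sum of 100.1 TPM, shares of 4.29% for alpha, 14.2% for beta and 81.5% for gamma, and a gamma ratio of 1.05. With expected counts in place of TPM, the alpha share was 4.89% and the gamma share 83.3%, and with posterior mean TPM the gamma share was 83.3%. Members above the limit on SD over count numbered 20 at a limit of 5%, 2 at 20% and 14 without the count filter. At 2-fold, 11 members passed in place of 22. With 1 library left out in turn, 25 to 27 members were detected, the sum was 108 to 124 TPM, the shares were 3.33% to 4.04% for alpha, 11.8% to 12.8% for beta and 83.9% to 84.2% for gamma, and 9 to 11 members were above the SD limit. Ratios have no value with a library left out. No paired analysis was possible because there is only 1 group. Depth limits the alpha and beta members most, as many hold under 50 counts a library.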

Other observations

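Inside the span of the clusters lie 28 annotated genes that are no members, chosen by position alone, and 5 of them were at 1 TPM or more in both libraries. BC037039, annotated as antisense and overlapping 1559 nt of Pcdhgc3, was at 4.16 TPM in library 1 and 6.62 TPM in library 2, with a ratio of 0.616 (95% interval 0.510 to 0.746), while Pcdhgc3 itself had a ratio of 1.10. Gm26672, on the minus strand, overlaps Pcdhga10 by 2613 nt and also Pcdhga11, Pcdhgb7 and Pcdhga12, and was at 2.47 and 2.82 TPM. Gm10544 was at 1.63 and 1.94 TPM, the non-coding 3222401L13Rik, just upstream of Pcdhga1, at 2.18 and 2.00 TPM, and Taf7 at 20.02 and 22.86 TPM. Of the 28, 15 are on the minus strand, 9 of these overlap an exon of a member, and 13 members are overlapped in this way.

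Pcdhgb8, annotated as a polymorphic pseudogene and therefore no member, was at 0.61 TPM in library 1 and 0.74 TPM in library 2, within the range of the gamma members, with a posterior SD of 10.9% and 9.37% of its count. It shares 2116 nt with each of the 21 gamma members. Gm29994, an antisense gene within the gamma constant region, had 13 counts in library 1 and 2 in library 2.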
